A study of Ovis aries with 7 samples.

Results

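The GABAA receptor is the chloride channel through which GABA, the main inhibitory transmitter of the striatum, acts within milliseconds. A receptor is built of several subunits, most often of the alpha, beta and gamma kinds, and the subunits present set where the receptor sits, how tightly it binds GABA and which drugs it answers to. Medium spiny neurons (MSNs), the projection neurons of the striatum, release GABA themselves and receive it from each other and from interneurons, while astrocytes and oligodendrocyte precursor cells (OPCs) also carry GABAA receptors.

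Transcripts of 7 subunit genes were followed over the cell classes of the sheep striatum. They were the 7 rows, of 26479 in the count tables, whose symbol was GABRA2, GABRA3, GABRA4, GABRA5, GABRB1, GABRB2 or GABRG1, and each symbol had 1 row. Their identifiers were ENSOARG00020007600 (GABRA2), ENSOARG00020006461 (GABRA3), ENSOARG00020007713 (GABRA4), ENSOARG00020003769 (GABRA5), ENSOARG00020007788 (GABRB1), ENSOARG00020011231 (GABRB2) and ENSOARG00020007554 (GABRG1). In the order of protein-coding genes on the ARS-UI_Ramb_v3.0 assembly, GABRG1 and GABRA2 were neighbours, then came 1 other gene, then GABRA4 and GABRB1. The counts themselves were made on another build, Oar_rambouillet_v1.0, so no coordinates and no gene lengths are given. Without lengths, levels were compared between classes or groups and not between genes, and the shares given further on are shares of UMIs, in which gene length is not corrected for.

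Single nuclei were sequenced from the striatum of 12 sheep aged 5 years. The OVT73 sheep (6 animals) carried a transgene of full-length human HTT cDNA with an expanded polyglutamine tract, driven by a segment of human sequence from upstream of HTT, and the 6 controls were age-matched sheep without it. The 3 OVT73 libraries pooled 2 sheep each, control replicates 3 and 4 also pooled 2, and control replicates 1 and 2 held 1 sheep each. Pooled sheep were not separated, so the library was the replicate (3 OVT73 against 4 control) and nuclei were not.

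The libraries held 20887378 to 70473426 unique molecular identifiers (UMIs, each marking 1 captured transcript), with the highest total in OVT73 replicate 1. Of 35272 barcodes, 32599 nuclei were kept, and 2 to 20 barcodes were shared by any pair of libraries. Clustering without any GABA receptor gene among the clustering genes, and naming by marker genes, placed 29486 nuclei (90.5%) in 11 classes, and the class names below mean likeness to a cell type by those markers. The D1 class was led by RELN and FSHR with TAC1, EBF1, PDYN and ISL1 raised within MSNs, and the D2 class joined a cluster led by HTR4 and one led by ZNF804A, both with DRD2, ADORA2A and SP9 raised. In CPM (UMIs of a gene per 1000000 UMIs of a class in a library), the summed D1 markers ran from 606 to 919 in D1 nuclei and from 233 to 311 in D2 nuclei, and the summed D2 markers from 28.5 to 58.6 CPM in D1 and from 305 to 558 CPM in D2 nuclei. The D2 sum was as high in eccentric MSNs (324 to 673 CPM), PV/Th interneurons (348 to 717 CPM) and astrocytes (328 to 669 CPM). It parted D2 from D1 nuclei but not from these classes. The neuroblast class shared ADARB2 with the eccentric MSN list, whose sum reached 2621 to 5092 CPM there and 3360 to 3818 CPM in eccentric MSNs.

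Each level below is the gene's UMIs summed over the nuclei of a class in 1 library, in CPM of those nuclei, and it is given as the lowest, the median and the highest of the libraries. Of 63 pairs of neighbouring classes in the order of the levels, 20 differed beyond the spread between libraries, by a two-sided exact sign-flip test on log2(CPM + 1) adjusted over 65 tests. With 7 libraries the smallest possible p was 0.0156, which became 0.0484 after adjustment. Every pair that passed stood at this smallest p. The adjusted value depends on how many pairs did, so the passes stand or fall together and 0.0484 does not rank them. SST/NPY interneurons had enough nuclei in 6 libraries only, where the smallest possible p of 0.03125 became 0.0635, so no pair with that class could pass. Their 8 nuclei in control replicate 1 were left out.

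The alpha subunits contribute one side of the GABA binding site. GABRA4, a subunit of extrasynaptic receptors that carry tonic inhibition, had levels of 663, 875 and 992 CPM in eccentric MSNs (a small MSN population, here with OTOF, FOXP2 and TSHZ1 raised), 691, 803 and 882 CPM in D1 MSNs, and 694, 798 and 923 CPM in D2 MSNs. Neither neighbour pair among these 3 classes passed. SST/NPY interneurons followed with 393, 495 and 565 CPM and PV/Th interneurons with 303, 395 and 421 CPM. From there the level dropped to 6.60, 60.3 and 173 CPM in neuroblasts, lower than in PV/Th interneurons in 7 of 7 libraries (exact sign-flip test, adjusted p = 0.0484). Neuroblasts, astrocytes (median 39.5 CPM) and OPCs (median 32.4 CPM) were not separated by the test, and OPCs were above oligodendrocytes (median 13.9 CPM) in 7 of 7 libraries (exact sign-flip test, adjusted p = 0.0484).

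GABRA5, the subunit of many tonic, extrasynaptic receptors, was highest in MSNs. It stood at 183, 217 and 242 CPM in D2 MSNs and at 160, 188 and 204 CPM in D1 MSNs, and D2 exceeded D1 in 7 of 7 libraries by a mean of 0.16 on the log2 scale (SD 0.09; exact sign-flip test, adjusted p = 0.0484). D1 MSNs in turn exceeded eccentric MSNs, at 54.7, 63.5 and 112 CPM, by a mean log2 difference of 1.40 (SD 0.33, 7 of 7 libraries, exact sign-flip test, adjusted p = 0.0484). The D1 level was 4.44 to 24.2 times that of PV/Th interneurons, whose median was 15.6 CPM. Eccentric MSNs exceeded neuroblasts, with a median of 21.5 CPM, in 7 of 7 libraries (exact sign-flip test, adjusted p = 0.0484). The median was 10.4 CPM in SST/NPY interneurons, 7.79 in microglia, 7.59 in OPCs, 7.30 in astrocytes and 3.18 in oligodendrocytes.

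GABRA3 was also highest in MSNs, and next in OPCs by its median. Its levels were 181, 221 and 270 CPM in D1 MSNs and 155, 197 and 233 CPM in D2 MSNs, with D1 above D2 in 7 of 7 libraries by 0.16 (SD 0.04) on the log2 scale (exact sign-flip test, adjusted p = 0.0484). Eccentric MSNs at 150, 166 and 238 CPM were not separated from D2 MSNs by the test. OPCs held 65.8, 70.7 and 88.8 CPM, below eccentric MSNs in 7 of 7 libraries (exact sign-flip test, adjusted p = 0.0484), and PV/Th interneurons 32.8, 60.8 and 82.6 CPM, lower than in OPCs in 6 of 7 libraries, which did not pass (adjusted p = 0.0635 by the same exact test). Astrocytes were near 0, at 0, 1.58 and 3.65 CPM, and in the 5 libraries with any GABRA3 UMI in astrocytes the OPC level was 18.7 to 50.8 times theirs.

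GABRA2, a synaptic alpha subunit of forebrain neurons, was high in both neurons and astrocytes. D1 MSNs had 473, 575 and 651 CPM, SST/NPY interneurons 434, 561 and 658 CPM, astrocytes 336, 509 and 565 CPM and D2 MSNs 400, 476 and 568 CPM, and no neighbours among these classes passed the test. Pairs with SST/NPY interneurons could not pass, so only astrocytes against D2 MSNs was open to it. Compared directly, D1 exceeded D2 MSNs in 7 of 7 libraries by 0.23 (SD 0.04) on the log2 scale (exact sign-flip test, adjusted p = 0.0484). D2 MSNs exceeded eccentric MSNs, at 329, 349 and 385 CPM, by 0.42 (SD 0.14), again in 7 of 7 libraries (exact sign-flip test, adjusted p = 0.0484). Neuroblasts at a median of 296 CPM and PV/Th interneurons at 261 CPM were not separated by the test. OPCs were lower than PV/Th interneurons in 7 of 7 libraries, at 94.4, 133 and 172 CPM (exact sign-flip test, adjusted p = 0.0484), and the astrocyte level was 1.95 to 5.35 times the OPC level.

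The beta subunits complete the GABA binding site and are needed for the receptor to reach the membrane. GABRB1 was highest in astrocytes, at 3024, 3990 and 5013 CPM, which was 2.48 to 3.86 times the D1 level and 11.4 to 26.0 times the OPC level in the same library. SST/NPY interneurons had 1620, 1792 and 2181 CPM, D1 MSNs 961, 1291 and 1604 CPM, and D2 MSNs 974, 1249 and 1632 CPM. The test did not separate D1 from D2 MSNs (mean log2 difference 0.02, SD 0.05, D1 higher in 4 of 7 libraries, exact sign-flip test, adjusted p = 0.497). The D2 class joined 2 clusters, however, and against the larger of them D1 MSNs were lower in 6 of 7 libraries (mean log2 difference -0.05, SD 0.06, described without a test). Oligodendrocytes came next with 502, 901 and 1337 CPM, followed by PV/Th interneurons at 712, 815 and 899 CPM and eccentric MSNs at 741, 776 and 1009 CPM, and no pair in this stretch passed the test. OPCs, at 153, 265 and 308 CPM, were lower than eccentric MSNs in 7 of 7 libraries, and neuroblasts, at 52.8, 62.5 and 94.7 CPM, lower than OPCs in 7 of 7 (exact sign-flip test, adjusted p = 0.0484 for each).

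GABRB2, another beta subunit of adult synapses, had another order. PV/Th interneurons had 752, 897 and 968 CPM, 1.45 to 1.98 times the D1 level, and exceeded D1 MSNs in 7 of 7 libraries (mean log2 difference 0.76, SD 0.18, exact sign-flip test, adjusted p = 0.0484). D1 MSNs held 473, 504 and 666 CPM, D2 MSNs 460, 494 and 635 CPM, neuroblasts 406, 452 and 783 CPM and eccentric MSNs 358, 376 and 505 CPM, and no pair among these classes passed the test. OPCs had 190, 248 and 279 CPM, below eccentric MSNs in 7 of 7 libraries (exact sign-flip test, adjusted p = 0.0484). SST/NPY interneurons had 34.2, 75.4 and 175 CPM, and the PV/Th level was 5.52 to 27.8 times theirs in the same library. Astrocytes, at 0, 6.49 and 9.48 CPM, were the lowest class, below oligodendrocytes in 7 of 7 libraries.

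GABRG1, a gamma subunit known from glia and a few neuron types, had few UMIs in every class. It reached 32.0, 80.2 and 103 CPM in SST/NPY interneurons, 49.7, 60.2 and 80.4 CPM in OPCs and 42.8, 52.7 and 63.9 CPM in astrocytes, and these classes were not separated by the test. The pair of SST/NPY interneurons and OPCs could not pass it. Astrocytes exceeded PV/Th interneurons, at 13.2, 27.9 and 34.7 CPM, in 7 of 7 libraries (exact sign-flip test, adjusted p = 0.0484). The 3 MSN classes lay at medians of 8.22 (D1), 8.15 (eccentric) and 8.11 CPM (D2), and the test did not separate them, and the OPC level was 4.56 to 12.2 times the D1 level.

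**Figure D1:**
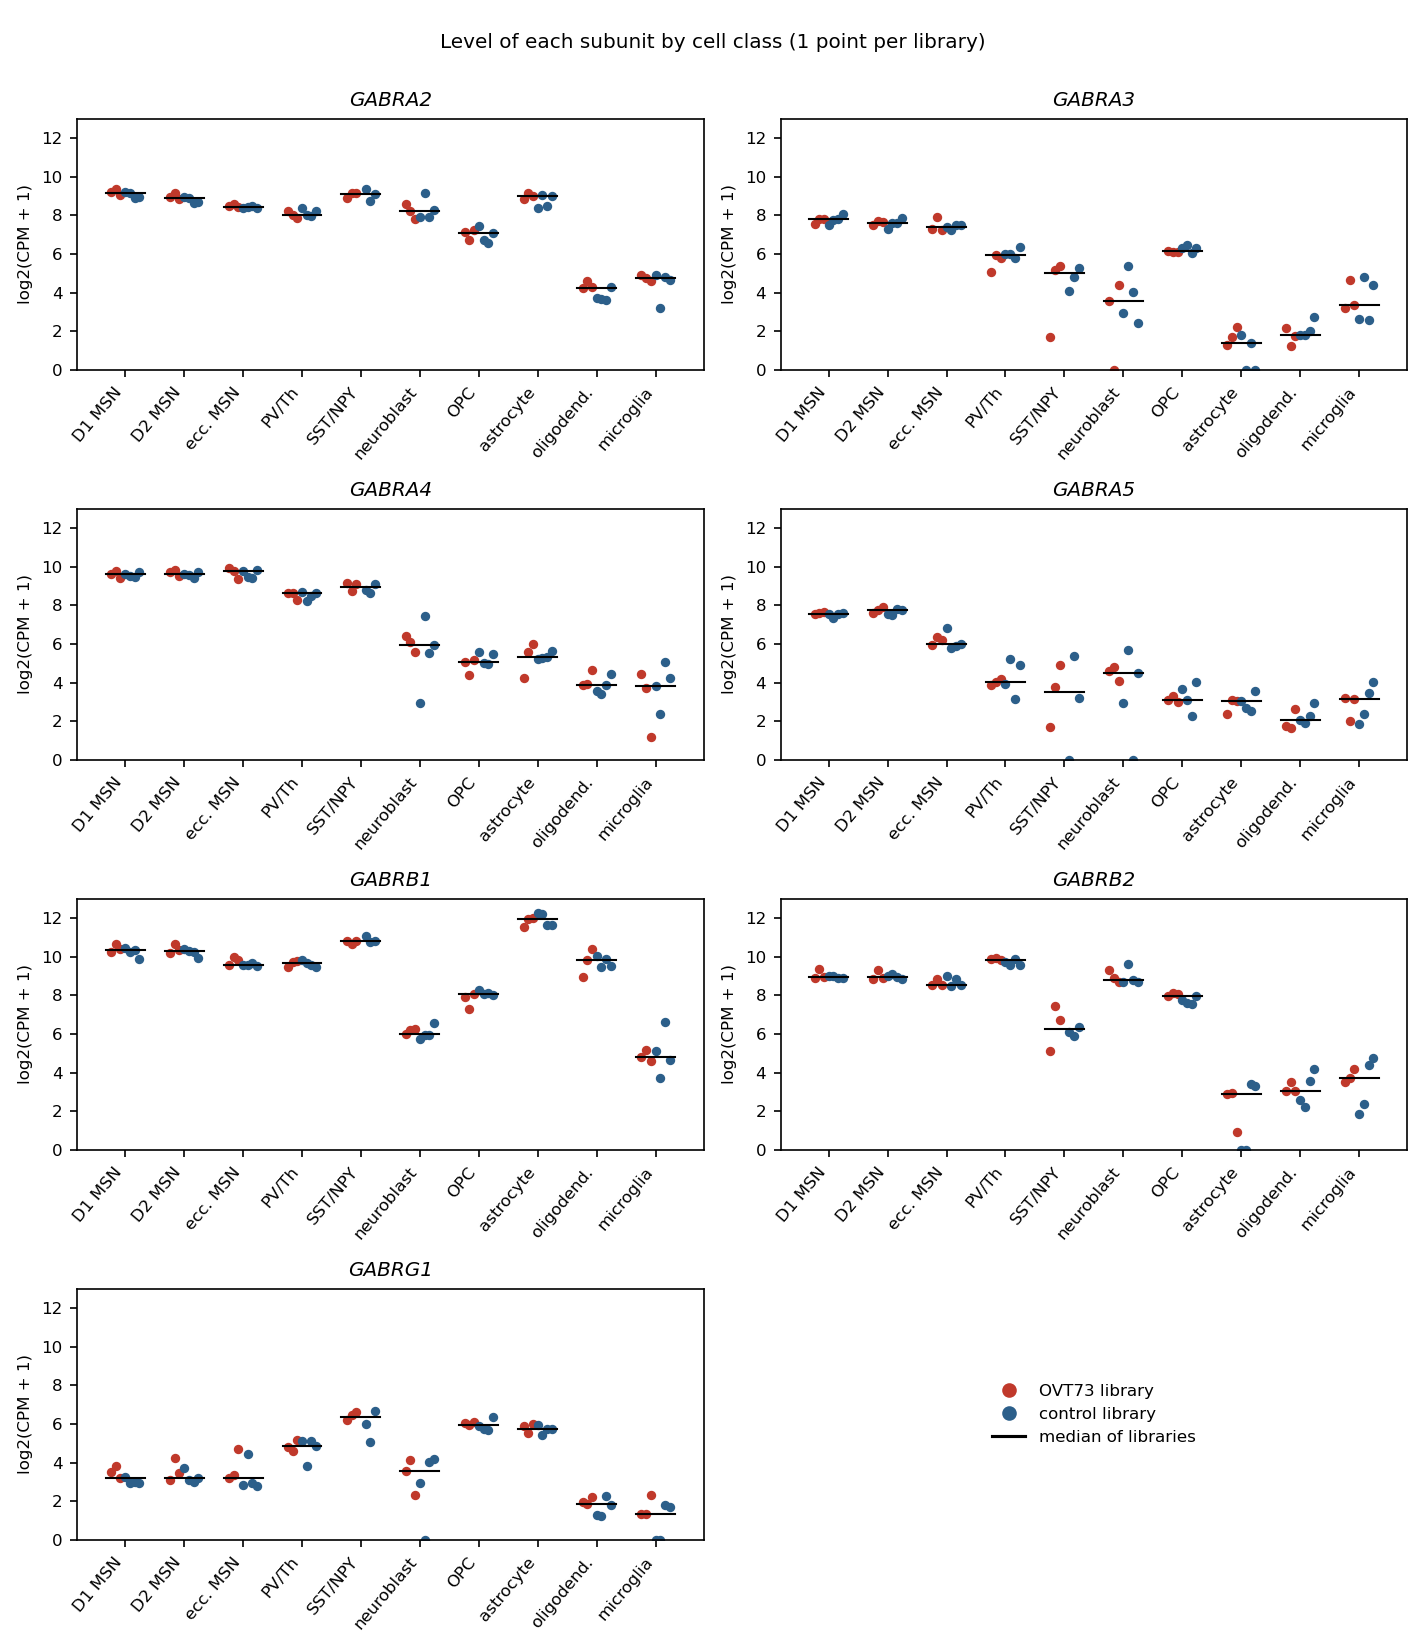
Level of each subunit gene as log2(CPM + 1) (vertical axis) in 10 cell classes (horizontal axis), 1 point per library with at least 10 nuclei, red for OVT73 and blue for control, with a bar at the median. GABRB1 is highest in astrocytes (median 3990 CPM) and stays high in oligodendrocytes (901 CPM), GABRB2 is highest in PV/Th interneurons (897 CPM), and GABRA5 is highest in D2 and D1 MSNs (217 and 188 CPM).

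Free RNA was not measured in empty droplets, and levels in microglia were used as a guide to the background. In microglia the medians of 6 members were 1.63 to 4.86% of the D1 level and that of GABRG1, with a median of 1.51 CPM, was 14.4%. In oligodendrocytes GABRA2, GABRA3, GABRA4, GABRA5 and GABRB2 had medians of 1.37 to 3.10% of the D1 level, close to the microglial ones. GABRB1 there was at 74.6% of the D1 level, and at 9.75 to 57.2 times its microglial level in the same library. In OPCs and astrocytes the guide was the neurons' own markers. The medians of 5 pan-neuronal markers in OPCs spanned 2.50 to 25.2% of the D1 level and those of 9 MSN markers 2.83 to 22.0%. The highest MSN marker in OPCs, FOXP1, was itself at 50.1% in microglia. Of the members in OPCs, GABRA4 (4.24%) and GABRA5 (4.62%) lay within both ranges, which did not tell them apart from background. GABRA4 was above its microglial 1.63% and, as given above, above oligodendrocytes, while GABRA5 was near its microglial 3.81%. GABRB1 (21.5%) and GABRA2 (24.2%) were below SNAP25 (25.2%) but above the next pan-neuronal marker, CELF4 (11.2%). Both were also above their microglial 2.20 and 4.86%, where SNAP25 was at 3.49%. For these 2 members the neurons' markers thus gave no clear line. GABRA3 (30.4%), GABRB2 (43.0%) and GABRG1 (712%) lay above both ranges. In astrocytes the pan-neuronal markers spanned 1.47 to 5.33% and the MSN markers 1.22 to 91.2%, and GABRA4 (5.32%), GABRA5 (3.57%), GABRA3 (0.730%) and GABRB2 (0.983%) were not read as expression there. With each nucleus thinned to 1000 UMIs, 44.2% of oligodendrocyte nuclei and 92.5% of astrocyte nuclei had a GABRB1 UMI, against 2.91% of microglia (unthinned 56.8%, 97.5% and 3.78%, at median depths of 1768, 3155 and 1407.5 UMIs). For GABRG1 the thinned shares were 5.65% in OPCs, 5.82% in astrocytes, 0.846% in D1 MSNs and 0.253% in microglia (unthinned 19.7%, 16.9%, 18.5% and 0.275%). The thinning left out 41 of 2909 OPC, 45 of 1541 astrocyte, 1714 of 15084 oligodendrocyte, 542 of 2912 microglial and 0 of 2601 D1 nuclei. Intervals over nuclei were not computed, since nuclei are not replicates.

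GABRB1 was uneven within oligodendrocytes. The class joined 4 clusters, and the one led by ENPP6, a gene of newly formed oligodendrocytes, had a mean of 426 ± 166 CPM (SD, n = 7 libraries). The clusters led by OPALIN, a gene of myelinating oligodendrocytes, had 1011 ± 308 CPM (6538 nuclei) and 890 ± 298 CPM (5348 nuclei), and the one led by CLMN had 1143 ± 261 CPM (896 nuclei). Within each of the 7 libraries the ENPP6-led cluster (2302 nuclei) was below each of the other clusters. The libraries spread widely, and over the whole class OVT73 replicate 3 had 1337 CPM and OVT73 replicate 1 had 502 CPM, the highest and the lowest of the 7, with the controls between 698 and 1068 CPM. These are descriptions, since the clusters were formed from the same nuclei.

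**Figure D2:**
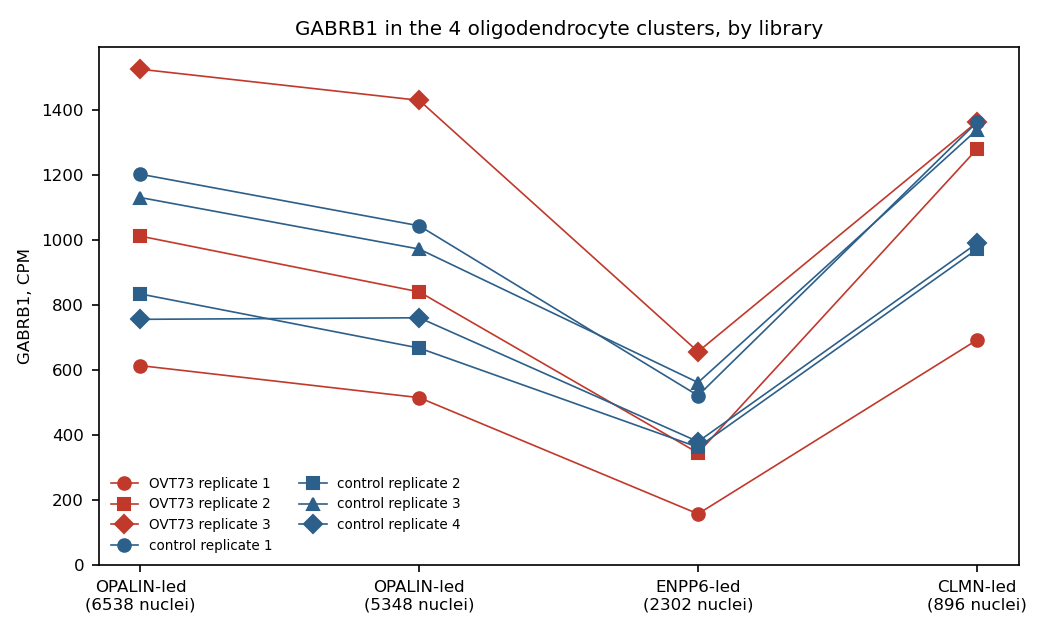
GABRB1 level in CPM (vertical axis, from 0) in the 4 oligodendrocyte clusters, named by their leading gene, with 1 line and marker per library, red for OVT73 and blue for control. Each line is lowest at the ENPP6-led cluster, and OVT73 replicates 1 and 3 lie below and above the other libraries in the OPALIN-led and ENPP6-led clusters.

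The D2 class also joined a large cluster led by HTR4 (2062 nuclei) and a small one led by ZNF804A (218 nuclei). GABRA2 was at 497 ± 60.4 CPM in the large and 267 ± 25.7 CPM in the small cluster, GABRB1 at 1343 ± 211 and 696 ± 164 CPM, and GABRB2 at 533 ± 63.3 and 356 ± 85.0 CPM (SD, n = 7 libraries). Each of these, and GABRA5 at 217 ± 23.0 and 141 ± 24.7 CPM, was higher in the large cluster in 7 of 7 libraries. GABRA5 was among the 10 leading genes of that cluster, though it was not used to form it. GABRA3 was at 195 ± 24.2 and 197 ± 24.1 CPM, and GABRA4 was 792 ± 82.8 and 904 ± 77.0 CPM, higher in the small cluster in 6 of 7 libraries. Set against the large cluster alone, D1 MSNs were higher in 7 of 7 libraries for GABRA2 (mean log2 difference 0.16, SD 0.03) and GABRA3 (0.17, SD 0.04) and lower in 7 of 7 for GABRA5 (-0.21, SD 0.10).

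Cholinergic interneurons (53 nuclei in all) had at least 10 nuclei in 2 libraries, OVT73 replicate 1 with 14 and control replicate 2 with 10. GABRB1 was at 852 CPM in the first and 4335 CPM in the second, and GABRA2 at 219 and 1189 CPM. With values this far apart in the only pair of libraries, no level was read for that class.

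The mix was described as each subunit's share of UMIs on all annotated subunits of its kind in a class and library. Of 28 comparisons of a share between D1 and D2 MSNs, or between an MSN class and PV/Th interneurons, 22 passed an exact sign-flip test over 7 libraries after adjustment over the 28. The alpha mix of D1 MSNs was 43.9 ± 1.65% GABRA4, 31.3 ± 2.40% GABRA2, 12.4 ± 1.74% GABRA3 and 10.6 ± 1.00% GABRA5 (SD, n = 7). In D2 MSNs the shares of GABRA4 (47.0%) and GABRA5 (12.3%) were higher in 7 of 7 libraries, and those of GABRA2 (27.7%) and GABRA3 (11.5%) lower in 7 of 7 (exact sign-flip test, adjusted p = 0.0230 for each). The test did not separate the beta and gamma shares of D1 and D2 MSNs. GABRB1 made up 39.3 and 38.8% of beta UMIs and GABRB2 15.7% in both, and GABRG1 3.19 and 2.98% of gamma UMIs.

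Eccentric MSNs had 56.9% GABRA4, 24.7% GABRA2, 12.1% GABRA3 and 5.00% GABRA5. PV/Th interneurons had 37.4% GABRA4, 28.1% GABRA2, 5.98% GABRA3 and 1.98% GABRA5. The GABRA3 and GABRA4 shares were higher in each of the 3 MSN classes than in PV/Th interneurons in 7 of 7 libraries, and the GABRA5 share was higher in 7, 7 and 6 of 7 libraries in D1, D2 and eccentric MSNs (exact sign-flip test, adjusted p = 0.0230, and 0.0398 for eccentric GABRA5). The GABRA2 share was 3.20 percentage points higher in D1 MSNs than in PV/Th interneurons (exact sign-flip test, adjusted p = 0.0398), and the test did not separate it in D2 (-0.428 points) or eccentric MSNs (-3.45 points). These alpha comparisons depended on the denominator. With shares among the 4 alpha members alone, GABRA4 turned from 6.55 points higher to 6.23 points lower in D1 MSNs than in PV/Th interneurons, and GABRA4 in D2 MSNs (9.66 to -3.19 points) and GABRA2 in D1 MSNs (3.20 to -6.38 points) turned likewise.

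The GABRB2 share differed between PV/Th interneurons and MSNs, at 33.2% of beta UMIs in PV/Th interneurons against 15.7% in D1, 15.7% in D2 and 16.5% in eccentric MSNs, higher in 7 of 7 libraries against each (exact sign-flip test, adjusted p = 0.0230). GABRB1 was lower in PV/Th interneurons (30.6%) than in D1 and D2 MSNs in 7 of 7 libraries by the same test, and was 2.06 points lower than in eccentric MSNs (32.7%), which did not pass. The GABRG1 share of gamma UMIs was higher in D1 and D2 MSNs than in PV/Th interneurons (1.75%) in 7 of 7 libraries, and lower in eccentric MSNs (0.526%) in 6 of 7 (exact sign-flip test, adjusted p = 0.0230, 0.0230 and 0.0398). The GABRG1 level ran the other way against D1 and D2 MSNs. Its median was 27.9 CPM in PV/Th interneurons and 8.22 CPM in D1 MSNs, with D2 MSNs close to D1. The higher share in D1 and D2 MSNs is thus no higher level, since the share also depends on the other gamma subunits. SST/NPY interneurons had another mix, described without a test: 50.0% GABRA2 and 45.0% GABRA4 among alpha UMIs, 62.2% GABRB1 and 2.99% GABRB2 among beta UMIs, and 18.1 ± 5.92% GABRG1 among gamma UMIs (n = 6 libraries, 783 gamma UMIs in all).

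Astrocytes had 89.9% GABRA2 among alpha UMIs, 71.8% GABRB1 and 0.0975% GABRB2 among beta UMIs and 28.2 ± 10.97% GABRG1 among 1081 gamma UMIs. Neuroblasts had 73.2% GABRA2, 37.3% GABRB2 and 5.25% GABRB1. OPCs had 45.5% GABRA2, 26.8% GABRA3 and 12.1% GABRA4 among alpha UMIs, 23.5% GABRB1 and 21.8% GABRB2 among beta UMIs and 17.9 ± 3.73% GABRG1 among gamma UMIs. In oligodendrocytes GABRB1 made up 97.3 ± 1.21% of 25954 beta UMIs. These glial and neuroblast shares were not tested against neurons, and the OPC share of GABRA4 came from a level that the neurons' markers did not tell apart from background.

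**Figure D3:**
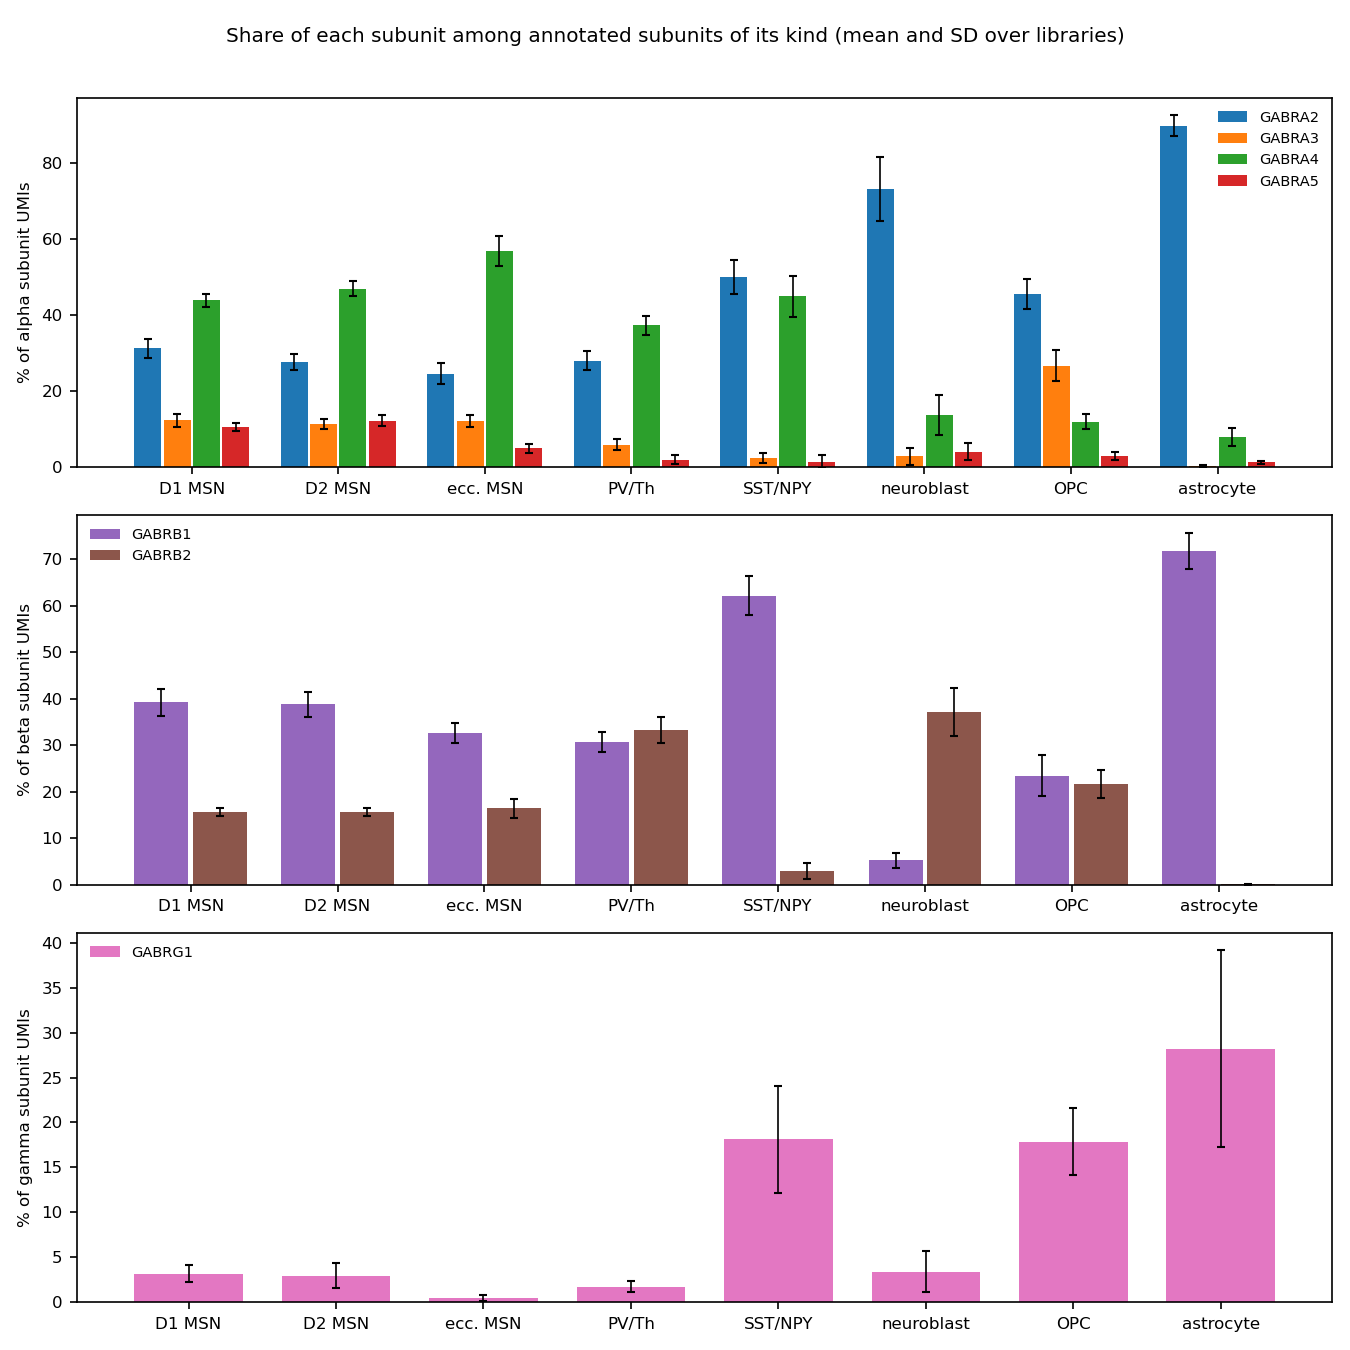
Share of each subunit, in percent of the UMIs of all annotated subunits of its kind (vertical axes: alpha, beta, gamma), in 8 classes; bars are means and lines SDs over the libraries with at least 10 nuclei and 20 such UMIs. GABRA2 is 89.9% of alpha UMIs in astrocytes and 50.0% in SST/NPY interneurons, and GABRB2 is 33.2% of beta UMIs in PV/Th interneurons against 2.99% in SST/NPY interneurons.

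Across the 9 classes with at least 10 nuclei in every library, the members followed different patterns. Pearson's r of the mean log2(CPM + 1) was 0.91 between GABRA4 and GABRA5, the highest of the 21 member pairs, and -0.04 between GABRB1 and GABRB2. Of 9168 genes that reached 20 CPM in a class, those most like each member were sought by the same measure. For GABRA4 these were KCTD16, NHSL2 and SGPP2 (r of 0.99 each), and for GABRA5 RIC8B, GNB5 and SYNDIG1 (0.99, 0.99 and 0.98). GABRA3 was most like CNTN4, RGS8 and FRMPD4 (0.98, 0.96 and 0.96), and GABRB1 most like HLF, N4BP2L1 and SLC2A1 (0.96, 0.95 and 0.95). GABRB2 was most like AP3S1, the unnamed gene ENSOARG00020011452 and AJAP1 (0.99, 0.99 and 0.98), and GABRG1 most like PLCH1, CPEB4 and GRIK1 (0.97, 0.95 and 0.95). The first 2 for GABRA2 were CFAP61 and C14orf132 (0.99 and 0.98). These are descriptions over 9 points that share their libraries.

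OVT73 and control libraries were then compared class by class, to ask whether the subunit genes differ with the transgene. UMIs were summed per library and class and tested with edgeR's quasi-likelihood test (two-sided, Benjamini-Hochberg over all genes of a class), and normalized CPM below are scaled by TMM factors. Of the 63 combinations of member and class, 51 passed the filter on low counts, and 0 had an adjusted p under 0.05. The smallest adjusted p was 0.624 (edgeR), for GABRB2 in OPCs. An unadjusted p under 0.05 was reached by 6 of the 51, where 3.98 to 7.23% of all genes reached it, depending on the class. DESeq2 called 0 members and 31 genes in all over the 9 classes. Few genes of any kind were called: 0.0% of the genes tested in D1 and D2 MSNs, PV/Th interneurons, neuroblasts, astrocytes, oligodendrocytes and microglia, 0.0133% in eccentric MSNs and 0.0111% in OPCs.

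All 7 members had a log2 fold change above 0 in D1 MSNs, where 45.6% of 12362 genes did, and in D2 MSNs, where 45.8% of 11977 did, and so did the 6 members tested in eccentric MSNs, against 48.1% of 7498 genes. The members' medians were 0.24 in D1, 0.21 in D2 and 0.16 in eccentric MSNs, and those of all genes tested -0.03, -0.02 and -0.01. No member passed the test in these classes. D1 and D2 MSNs come from the same libraries, so their values are not independent. OVT73 replicate 2 had the highest normalized CPM of all 7 libraries for 6 of 7 members in D1 and 5 of 7 in D2 MSNs. Without that library the members' medians were 0.14 in D1 and 0.10 in D2 MSNs, with 6 of 7 members above 0 in each. In eccentric MSNs the median was 0.10, with 4 of the 7 members then tested above 0. The library was picked for its high values, so lower medians without it follow from the choice and are no separate test. Left out instead, OVT73 replicate 1 gave medians of 0.24, 0.30 and 0.21 in D1, D2 and eccentric MSNs. Leaving out OVT73 replicate 3 gave 0.34, 0.31 and 0.26. Of the 7 libraries left out in turn, OVT73 replicate 2 gave the lowest median in each class. Values of single members without it, given below, are for size only. Drawing equal numbers of nuclei from every library left 3 of 6 members above 0 in eccentric MSNs, with a median of 0.01.

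GABRB1 in D1 MSNs had 1275, 1725 and 1336 normalized CPM in OVT73 replicates 1, 2 and 3 and 1374, 1233, 1183 and 965 in control replicates 1 to 4. OVT73 replicate 2 stood above all other libraries, and the groups overlapped. The log2 fold change was 0.28 (SE 0.15; edgeR adjusted p = 0.949). In D2 MSNs the values were 1239, 1764 and 1340 against 1308, 1233, 1116 and 972, with the same library on top and the same overlap (log2 fold change 0.32, SE 0.14; edgeR adjusted p = 0.888). Without that library the values were 0.14 in D1 and 0.16 in D2 MSNs. In eccentric MSNs they were 775, 1064 and 945 against 758, 764, 770 and 733, so that every OVT73 library lay above every control, the lowest by a few CPM (log2 fold change 0.29, SE 0.13; edgeR adjusted p = 0.662; 0.19 without OVT73 replicate 2).

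GABRA2 showed a like picture. In D1 MSNs OVT73 libraries had 614, 700 and 526 normalized CPM and controls 571, 576, 434 and 491, which overlapped (log2 fold change 0.24, SE 0.14; edgeR adjusted p = 0.949). In D2 MSNs they had 510, 614 and 473 against 470, 470, 373 and 417, and all OVT73 values were above all controls (log2 fold change 0.30, SE 0.12; edgeR adjusted p = 0.888). In eccentric MSNs they had 369, 406 and 356 against 325, 343, 342 and 326, again without overlap (log2 fold change 0.17, SE 0.12; edgeR adjusted p = 0.826). Without OVT73 replicate 2 the values were 0.14 in D1 and 0.18 in D2 MSNs.

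GABRA5 had 197, 207 and 203 normalized CPM in OVT73 and 179, 160, 172 and 193 in control D1 MSNs, which did not overlap (log2 fold change 0.20, SE 0.10; edgeR adjusted p = 0.949). In D2 MSNs it had 198, 237 and 244 against 182, 181, 205 and 216, with OVT73 replicate 1 inside the control range (0.21, SE 0.11). GABRB2 in D1 MSNs had 506, 716 and 502 against 489, 512, 435 and 475, where only OVT73 replicate 2 lay above the controls (0.27, SE 0.14), and the value was 0.08 without that library. In D2 MSNs GABRB2 gave 0.15 (SE 0.14), and -0.04 without it. GABRA4 gave log2 fold changes of 0.14 (SE 0.13) in D1 and 0.21 (SE 0.13) in D2 MSNs, and GABRA3 0.05 (SE 0.15) and 0.11 (SE 0.14), each with overlap. Without OVT73 replicate 2 these were 0.03 and 0.10 for GABRA4 and -0.02 and 0.03 for GABRA3. GABRG1 had the highest value of the members, 0.66 (SE 0.23) in D1 MSNs, from 10.8, 14.2 and 8.19 against 8.32, 6.68, 6.40 and 6.63 normalized CPM, a low level at which the groups still overlapped. In D2 MSNs it gave 0.57 (SE 0.33). Without OVT73 replicate 2 the GABRG1 values were 0.44 in D1 and 0.09 in D2 MSNs.

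**Figure D4:**
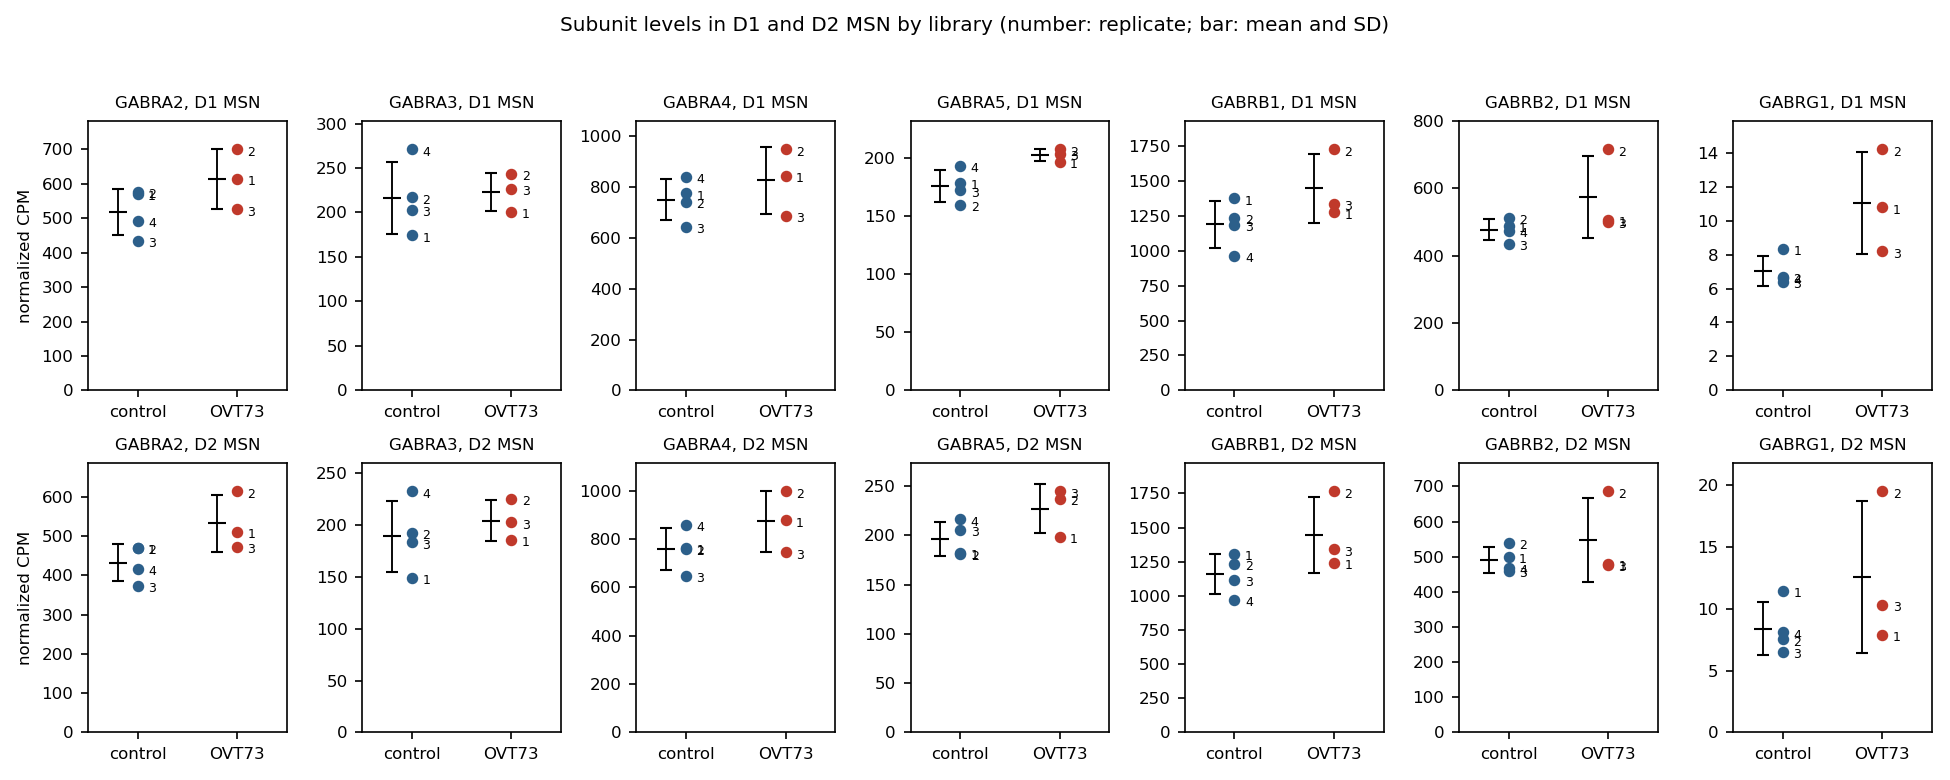
Normalized CPM of the 7 members (vertical axes, from 0) in D1 MSNs (upper row) and D2 MSNs (lower row), 1 point per library numbered by replicate, with the mean and SD of each group beside the points. OVT73 replicate 2 is the highest of all libraries for 6 of 7 members in D1 and 5 of 7 in D2 MSNs.

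Every OVT73 library was above every control library for 1 of 7 members in D1 MSNs (3.03% of all genes there), 1 of 7 in D2 MSNs (3.43%) and 2 of 6 in eccentric MSNs (3.57%). An unadjusted edgeR p under 0.05 was found for 1 of 7 in D1 (3.98% of all genes), 2 of 7 in D2 (4.65%) and 1 of 6 in eccentric MSNs (7.23%). These counts rest on 6 or 7 members. Summed markers were also compared between the groups, for every marker list in each of the 9 classes and without adjustment. Most of these sums overlapped, and those printed in this and later paragraphs were picked because the groups lay apart or nearly so. The summed astrocyte markers were among those picked. They were 361 to 372 CPM in OVT73 and 418 to 479 CPM in control D2 MSNs, and 458 to 524 against 565 to 658 CPM in eccentric MSNs (exact permutation p = 0.0286 for each, the smallest that 35 splits allow). In D2 MSNs 5 of the 9 markers went against the sum, with the higher mean in OVT73, and in eccentric MSNs 1 of 9 did. In D1 MSNs the sums were 418 to 455 against 466 to 577 CPM. The general interneuron markers in eccentric MSNs were 14480 to 16175 against 12126 to 13568 CPM. The median D1 nucleus held 19905.5 to 32186 UMIs across the OVT73 libraries, while the controls spanned 15223 to 24189. Their part in the members' values was not tested.

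The D2 minus D1 difference was also taken within each library and compared between OVT73 and control libraries, and 0 of 7 members passed. For GABRA4 the OVT73 difference was 0.07 higher in D2 than in D1 on the log2 scale (exact permutation p = 0.0286, adjusted 0.200), and for GABRB2 0.11 lower (exact permutation p = 0.0571, adjusted 0.200). The other members gave -0.10 to 0.06, with exact adjusted p-values from 0.267 to 0.971. The p of GABRA4 was the smallest that 35 splits allow, and 1 member at that p could not pass once adjusted over 7. The count of 0 thus cannot tell whether the effect of a single member differs between D1 and D2 MSNs.

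In OPCs the members did not move one way: 3 of 7 had a log2 fold change above 0, with a median of -0.09. GABRB2 had 256, 299 and 272 normalized CPM in OVT73 and 212, 195, 177 and 243 in control OPCs, where each OVT73 library was above all controls (log2 fold change 0.41, SE 0.12; edgeR adjusted p = 0.624). It was the 1 of 7 members without overlap in that direction (4.24% of all genes) and the 1 with an unadjusted p under 0.05 (6.64%). GABRB1 had 249, 164 and 272 against 300, 268, 260 and 255, with OVT73 replicate 3 inside the control range (-0.25, SE 0.15; edgeR adjusted p = 0.758), and -0.06 without OVT73 replicate 2. The GABRB1 level in OPCs was one for which the neurons' markers gave no clear line against background. As a share of beta UMIs, GABRB1 was 20.05% in OVT73 and 26.1% in control OPCs without overlap (exact permutation p = 0.0286, adjusted 0.571 over 60 shares). Beside these stand the summed interneuron markers, 5548 to 5995 CPM in OVT73 and 4614 to 5169 CPM in control OPCs, the summed MSN markers, 872 to 966 against 816 to 859 CPM, and the OPC markers themselves, 23407 to 25303 against 22362 to 23031 CPM (exact permutation p = 0.0286 for each list). The number of markers with the higher mean in OVT73 was 5 of 7, 2 of 9 and 5 of 9 in these lists. Their part in the GABRB2 value was not tested.

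In astrocytes GABRB1 had 3035, 4135 and 4107 normalized CPM in OVT73 and 4942, 4844, 3112 and 3143 in control libraries, which overlapped throughout (log2 fold change -0.09, SE 0.19; 95% interval -0.47 to 0.29; edgeR adjusted p = 1.00). The high values belonged to control replicates 1 and 2, the libraries of 1 sheep each. GABRA2 in astrocytes gave 0.28 (SE 0.19) and GABRG1 0.13 (SE 0.22). All OVT73 libraries were above all controls for 0 of 4 astrocyte members (2.87% of all genes), and 0 of 4 had an unadjusted p under 0.05 (4.44%). In the astrocytes the summed pan-neuronal markers were 110 to 112 CPM in OVT73 and 141 to 217 CPM in control libraries, with 0 of 5 markers higher in OVT73, and the neuroblast markers 79.3 to 88.5 against 91.0 to 105 CPM, with 3 of 7 higher (exact permutation p = 0.0571 for each list). Their part in these values was not tested.

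PV/Th interneurons gave a GABRB2 log2 fold change of 0.24 (SE 0.13; edgeR adjusted p = 0.998) from 948, 1030 and 901 against 815, 779, 907 and 746 normalized CPM, with 1 control library above the lowest OVT73 library. The summed D2 MSN markers in PV/Th interneurons were 348 to 434 CPM in OVT73 and 468 to 717 CPM in control libraries (exact permutation p = 0.0571), with 2 of 6 markers higher in OVT73, and their part in the GABRB2 value was not tested. In this class 0 of 7 members were without overlap (3.06% of all genes), and 0 of 7 had an unadjusted p under 0.05 (4.09%). Neuroblasts, with 45 to 447 nuclei per library, gave -0.17 to 0.03 for 4 members, with 0 of 4 above all controls (2.92%) and 0 of 4 at an unadjusted p under 0.05 (4.22%). The summed cholinergic interneuron markers in neuroblasts were 9.99 to 23.9 CPM in OVT73 and 39.6 to 60.2 CPM in control libraries (exact permutation p = 0.0286). Of these 7 markers 1 was higher in OVT73, and their part in the members' values was not tested. In oligodendrocytes GABRB1 had 508, 968 and 1333 against 1058, 711, 899 and 722 normalized CPM (0.14, SE 0.30), so that the OVT73 libraries lay on both sides of the controls. GABRA2 there had 18.3, 25.2 and 18.8 against 12.2, 11.9, 10.6 and 18.0, the 1 of 7 members without overlap (3.38%) and with an unadjusted p under 0.05 (5.16%), at a level close to that of microglia (0.65, SE 0.23; edgeR adjusted p = 0.879). In microglia 2 members were tested, with 0 of 2 above all controls (2.71%) and 0 of 2 at an unadjusted p under 0.05 (4.14%).

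**Figure D5:**
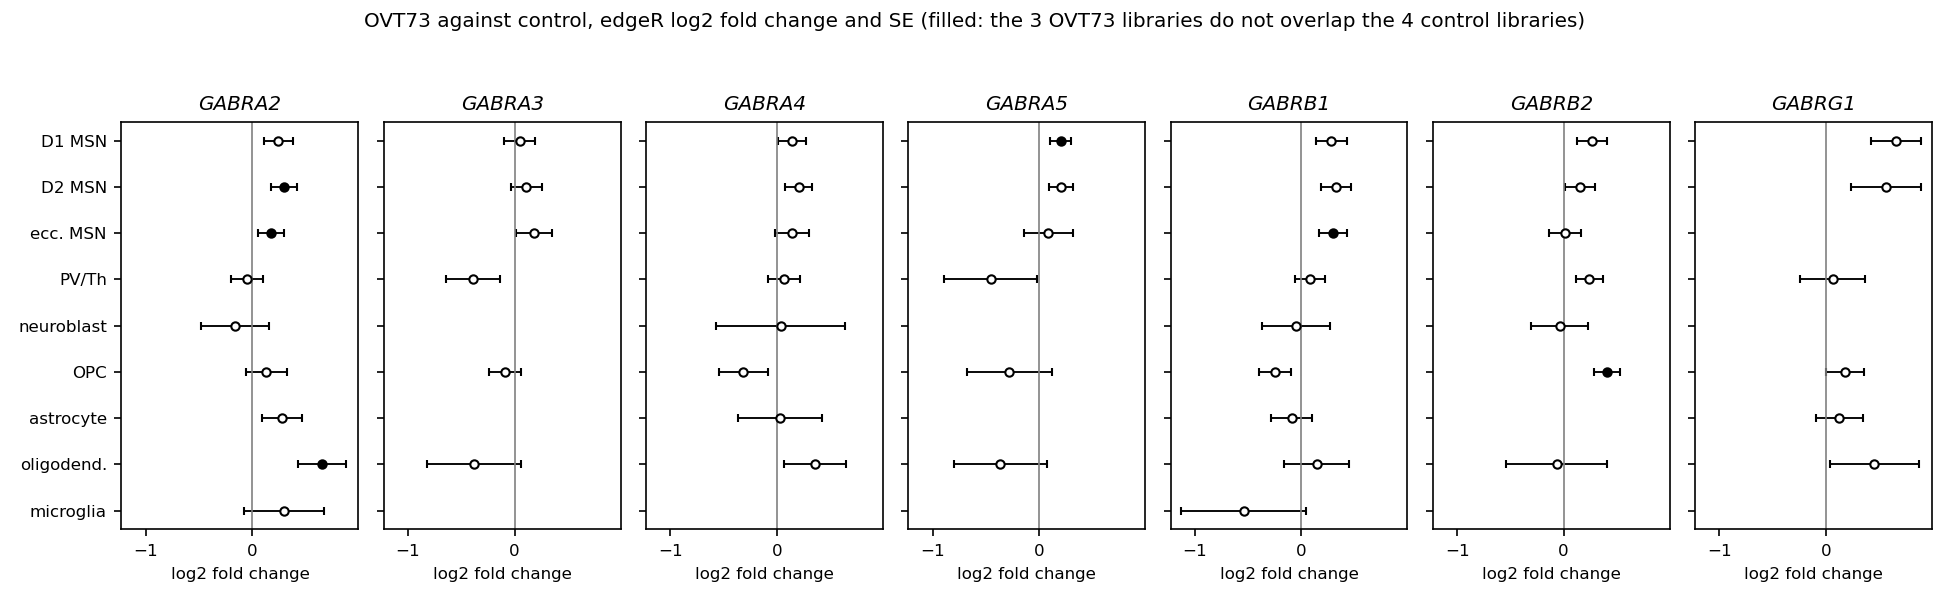
Log2 fold change of OVT73 against control with its SE (horizontal axes) for each member (panels) in the 9 classes tested (rows), with filled points where the OVT73 and control libraries do not overlap. The points of all members tested in the 3 MSN classes lie to the right of 0, with 0 of the 51 passing the edgeR test after adjustment.

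For the mix, 60 shares were compared by an exact permutation test, where the smallest p that 35 splits allow is 0.0286. Once adjusted over 60, a few shares at that p could not pass, so the count of passes does not settle whether the mix differs. By this test 0 passed after adjustment (smallest adjusted p = 0.571), 3 had an unadjusted p under 0.05 and 4 were without overlap. These 4 were GABRB1 in OPCs, given above, GABRA4 in OPCs (10.4% in OVT73 and 13.3% in control libraries, exact permutation p = 0.0571, adjusted 0.735), and GABRA5 (6.70 and 10.7%) and GABRG1 (26.7 and 17.1%) in oligodendrocytes (exact permutation p = 0.0286, adjusted 0.571 for each). In OPCs the neurons' markers did not tell the GABRA4 level apart from background, and for GABRB1 they gave no clear line. The GABRA5 share in oligodendrocytes came from levels near those of microglia. The GABRG1 share rested on 393 gamma UMIs over all libraries. After thinning to 1000 UMIs, 0.224% of oligodendrocyte and 0.253% of microglial nuclei had a GABRG1 UMI. In D1 MSNs the GABRA2 share was 32.2 ± 0.732% in OVT73 and 30.7 ± 3.15% in control libraries, and the GABRA4 share 43.3 ± 2.06% and 44.4 ± 1.39% (SD).

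Genes of the receptor's surroundings were taken from a fixed list of 16: those that cluster, traffic or modulate GABAA receptors (such as GPHN, which encodes the scaffold gephyrin), the chloride transporters SLC12A5 and SLC12A2, which set the direction of the chloride current, and the GABAB receptor genes GABBR1 and GABBR2. Of these, 13 were in the tables. By edgeR 0 of them were called in any of the 9 classes. An unadjusted p under 0.05 was reached by 0 of 13 in D1 and D2 MSNs, by 1 of 11 in eccentric MSNs (7.23% of all genes), by 2 of 9 in oligodendrocytes (5.16% of all genes) and by 0 in the other classes. In D1 MSNs 8 had a log2 fold change above 0 and 5 below, with a median of 0.09, and in D2 MSNs 9 and 4, with a median of 0.05, where 45.6 and 45.8% of all genes were above 0. UBQLN1, which stabilises GABAA receptors, was the 1 of 13 without overlap in D1 MSNs (3.03% of all genes), at 84.6, 89.3 and 89.3 against 79.5, 77.6, 84.3 and 78.1 normalized CPM (log2 fold change 0.14, SE 0.10; edgeR adjusted p = 0.949). GPHN was 0.09 (SE 0.13) in D1 and 0.11 (SE 0.11) in D2 MSNs. The transporters SLC12A5 and SLC12A2 were -0.01 each in D1 MSNs, and GABBR1 and GABBR2 0.10 and 0.12 there and 0.23 and 0.28 in D2 MSNs, each with overlap of the groups.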

How the data were processed

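Nuclei of frozen anterior striatum were sequenced with 10x Genomics 3′ chemistry. The count of UMIs per gene and barcode was deposited by the authors for each of the 7 libraries, not normalized. Per the labels, Cell Ranger 7.0.0 and STAR 2.7.2a were used, and the study's methods give Oar_rambouillet_v1.0 with Ensembl 107. The study's mapping summary assigns more reads to the transcriptome than to exons, so the counts appear to include intronic reads. Sheep pooled in a library were not separated.

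Nuclei with 200 to 7500 genes and at most 5% mitochondrial UMIs were kept (33957), and the 4% with the highest doublet scores per library were removed (1358 nuclei), since scrublet's own threshold marked 9. The 3000 most variable genes without GABA receptor genes gave 30 components, corrected between libraries by a Harmony-style step, and 28 Louvain clusters (20 neighbours, resolution 1.0, igraph 0.11.9). A cluster was named where at least 3 of a class's markers were raised by over 1.0 on the log2 scale. A marker also had to be among its 10 leading genes, or at least 66% of the list raised. A class of another lineage barred the name if 3 of its markers reached 0.4 of that mean raise, or if it had more leading genes. All neuron classes except neuroblasts counted as 1 lineage. Clusters with over 50% doublets or over 75% of nuclei from 1 library, 11 clusters in all with those that met no rule, stayed unnamed, and 808 nuclei of an MSN cluster could not be divided. The naming thresholds were set after the marker profiles and the subunit levels by cluster had been seen. The members, gene lists and tests were chosen with earlier results of these data known.

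Sums per class and library were compared with edgeR 4.0.16 in R 4.3.3 (filterByExpr, TMM, robust quasi-likelihood test), where every library held at least 10 nuclei. Levels used a pseudocount of 1 CPM, and shares needed at least 20 UMIs. Adjusted p-values are Benjamini-Hochberg with a threshold of 0.05, and 95% intervals are 1.96 SE on either side. Exact tests are two-sided. The p-values measure the spread between libraries of 1 or 2 sheep. The edgeR script was tested on simulated data.

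Genes named are the 7 members in every class, the 3 genes most like each, and genes of the surrounding list without overlap of the groups in D1 or D2 MSNs; GPHN, the chloride transporters and the GABAB receptor genes were added as examples after their values were seen. Results for other single subunit genes, including the remaining gene most like GABRA2, are not reported here. Alternatives were RLE and no size factors, no filter, DESeq2 1.42.0, equal numbers of nuclei, doublets kept, clustering with GABA receptor genes, libraries of 2 sheep only, other denominators and summaries, a pseudocount of 10 CPM and each library left out in turn.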

Additional observations from a re-analysis of the deposited data

Results flagged for a closer look

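In 51 control groups of 4 libraries, 4 had a highest library separated from the rest by more than Dixon's 95% critical value (the gap as a share of the group's range), where chance gives about 1 in 20. GABRG1 in D1 MSNs was 8.32 normalized CPM in control replicate 1 and 6.40 to 6.68 in the others. GABRA5 in eccentric MSNs was 109 normalized CPM in control replicate 1, the library with 25 such nuclei, and 54.4 to 62.8 in the others. GABRB2 in neuroblasts was 852 normalized CPM in control replicate 2, the library with 45 such nuclei, and 413 to 426 in the others. GABRA3 in oligodendrocytes was 5.53 normalized CPM in control replicate 4 and 2.45 to 2.83 in the others, a level close to that of microglia.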

How the results depend on the processing

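The comparisons rest on 3 against 4 libraries, and neuroblasts, astrocytes and SST/NPY interneurons hold few nuclei in some of them. No paired analysis was possible because the replicate numbers follow the order of deposition and pair no libraries. Members called between OVT73 and control stayed at 0 under every alternative run. Genes called over the 9 classes, 2 as reported, were 175 without the filter on low counts, 31 with DESeq2, 0 with equal numbers of nuclei, 12 with libraries of 2 sheep only, and 0 to 3 with 1 library left out. The causes were not tested. Without TMM factors the median of all genes moved to -0.13 in D1 and D2 MSNs, and the members' median relative to it was 0.27 in D1 and 0.23 in D2 MSNs, as with TMM.

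Of the single values under alternatives that keep all libraries or only those of 2 sheep, 497 kept direction and call, 31 changed sign, 4 gained a call, 3 lost it and 1 count moved. With shares among the members only, the calls gained were GABRA2 lower in D2 (-10.2 points) and eccentric MSNs (-13.3 points) than in PV/Th interneurons and GABRB1 higher in eccentric MSNs than there (18.6 points), and the call lost was GABRA5 in eccentric MSNs against PV/Th interneurons (2.40 points). As means of per-nucleus shares, GABRB1 in D1 against D2 MSNs gained a call (1.34 points), and GABRA2 in D1 (2.24 points) and GABRA5 in eccentric MSNs (2.55 points) against PV/Th interneurons lost it. The count was that of members above 0 in eccentric MSNs, 3 with equal numbers of nuclei. With libraries of 2 sheep only, the log2 fold change of GABRA3 became -0.085 in D1 MSNs, -0.022 in D2 MSNs and 0.051 in OPCs. In PV/Th interneurons it became 0.0076 for GABRA2 and -0.074 for GABRG1. In neuroblasts it became 0.17 for GABRA2 and 0.29 for GABRB2, and in astrocytes -0.047 for GABRA4 and 0.28 for GABRB1. With equal numbers of nuclei, eccentric MSNs gave -0.031 for GABRA3, -0.062 for GABRA4 and -0.12 for GABRB2, neuroblasts 0.25 for GABRB2 and astrocytes -0.48 for GABRG1. Without TMM factors, GABRA3 in D1 MSNs was -0.050, GABRB2 in eccentric MSNs -0.063, GABRA4 in astrocytes -0.00467 and the D2 minus D1 difference of GABRA5 -0.00697. With doublets kept, GABRB2 was 0.010 in neuroblasts and 0.025 in oligodendrocytes, and GABRA2 -0.021 in microglia. Without the filter, GABRB1 and GABRB2 in neuroblasts were 0.11 and 0.13, and with DESeq2 GABRA4 there was -0.11. Clustering with GABA receptor genes gave -0.16 for GABRG1 in PV/Th interneurons.

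With shares among the members only, the D1 minus PV/Th difference was -6.38 points for GABRA2 and -6.23 for GABRA4, the D2 minus PV/Th difference -3.19 points for GABRA4, and the D1 minus D2 difference -0.201 points for GABRB2. As means of per-nucleus shares, D1 minus D2 was -0.0926 points for GABRB2 and -0.131 for GABRG1. Without thinning, the share of nuclei with a UMI was 97.5% for GABRB1 in astrocytes and 19.7%, 16.9% and 18.5% for GABRG1 in OPCs, astrocytes and D1 MSNs.

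With 1 library left out at a time, the following values changed sign. In D1 MSNs GABRA3 ran from -0.045 to 0.17, and in D2 MSNs GABRB2 ran from -0.041 to 0.25. In eccentric MSNs GABRA3 ran from -0.068 to 0.32, GABRB2 from -0.11 to 0.11 and GABRA5 from -0.033 to 0.34. GABRA5 in OPCs ran from -0.49 to 0.013. In PV/Th interneurons GABRA2 ran from -0.13 to 0.051, GABRA4 from -0.030 to 0.19 and GABRG1 from -0.12 to 0.16. In neuroblasts GABRA2 ran from -0.40 to 0.23, GABRA4 from -0.40 to 0.84, GABRB1 from -0.18 to 0.25 and GABRB2 from -0.25 to 0.29. In astrocytes GABRA4 ran from -0.36 to 0.47 and GABRB1 from -0.20 to 0.049, in oligodendrocytes GABRB1 from -0.20 to 0.45 and GABRB2 from -0.34 to 0.45, and in microglia GABRB1 from -0.87 to 0.30. The D1 minus D2 level of GABRB2 ran from -0.0076 to 0.024, its share from -0.139 to 0.193 points, and the GABRA2 share of D2 minus PV/Th from -1.02 to 0.213 points. The D2 minus D1 difference in the OVT73 effect ran from -0.053 to 0.074 for GABRA5 and from -0.27 to 0.16 for GABRG1. The 6 pairs without overlap of the groups could hardly change sign, since their groups stay apart when a library is dropped. Their ranges are given for size only and are no further test. They ran from 0.15 to 0.25 for GABRA5 in D1 and from 0.18 to 0.38 for GABRA2 in D2. In eccentric MSNs they were 0.12 to 0.22 for GABRA2 and 0.19 to 0.41 for GABRB1. GABRB2 in OPCs had 0.34 to 0.50 and GABRA2 in oligodendrocytes 0.49 to 0.83. Level tests with 6 libraries could not pass and gave no value.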

Other observations

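A cluster of 582 nuclei led by DTHD1, GPC3 and COL22A1 stayed unnamed, since 6 astrocyte markers were raised in it and 0 of them were among its 10 leading genes. Its GABRB1 level was 1065, 2403 and 3150 CPM (lowest, median and highest library), its GABRA2 level 92.3, 195 and 257 CPM and its GABRG1 level 49.0, 61.6 and 120 CPM. GABRA3 was listed at 0 in the median library, with a highest value of 10.9 CPM. These values were not compared between the groups. With GABA receptor genes among the clustering genes, a DTHD1-led cluster of 1195 nuclei had 8 astrocyte markers raised and was named astrocyte. The astrocyte class then joined it with a cluster of 922 nuclei, in place of the 1541 nuclei used above. The astrocyte levels given above leave out the 582 nuclei.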
